A study of Mus musculus with 12 samples.

Results

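The genes described here are 10 components of signalling by transforming growth factor beta (TGF-beta) and bone morphogenetic proteins (BMPs) in cultured mouse macrophages and osteoclasts: the ligand gene Tgfb1, the receptor genes Tgfbr1 and Tgfbr2, the SMAD genes Smad1, Smad3, Smad6 and Smad7, and the inhibitor of DNA binding genes Id1, Id2 and Id3. They were taken as a named list and matched by Ensembl gene identifier. All 10 were found among the 41388 genes counted, and all 10 were among the 13030 genes tested. The smallest count of any of them in any library was 168 reads.

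RNA-seq counts were available for 12 libraries of bone marrow cells from C57BL/6 mice, 3 in each of 4 groups. The first genotype carried loxP-flanked Asxl2 (flox), and the second was labelled positive for LysM Cre (KO), a recombinase driven by the lysozyme gene Lyz2, which is active in macrophages, neutrophils and other myeloid cells. Cells of both genotypes were first cultured for 5 days in alpha MEM with 10% serum, then detached and replated. For the last 2 days all cells had 2% M-CSF, on which macrophages survive, and the osteoclast cultures (OC) also had RANKL, the osteoclast-inducing cytokine, at 50 ng/ml. The cultures without RANKL are the bone marrow macrophages (BMM). The comparison of the genotypes has no group with Cre and intact Asxl2, so that loss of Asxl2 and the presence of Cre cannot be told apart. The labels give no age, and nothing in them ties a group's 3 libraries to separate mice, so p-values measure the spread between libraries, which may be technical.

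TGF-beta binds the receptor TGFBR2, which activates TGFBR1, and TGFBR1 then phosphorylates SMAD2 and SMAD3. BMPs act through their own receptors on SMAD1, SMAD5 and SMAD9, and both branches share the partner SMAD4. SMAD6 and SMAD7 are inhibitory SMADs, made in response to the pathway and acting back on its receptors. ID proteins have a helix-loop-helix domain but no DNA-binding region, and they sequester the E proteins, transcription factors of the basic helix-loop-helix (bHLH) class. Id1, Id2 and Id3 are known targets of BMP signalling, and in osteoclast precursors ID proteins are known to restrain differentiation. TGF-beta made by macrophages and stored in bone matrix is known to act on osteoclast precursors.

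The promoter windows of 4 genes are shown as examples of windows that held a motif tied to this pathway: the SMAD box CAGAC, the palindromic SMAD site GTCTAGAC or the GC-rich BMP element GGCGCC. Each runs from 250 bases before the start site to 25 bases of the transcribed strand in RefSeq, GRCm38.p6, read 5′ to 3′ on the strand of the gene, with those motifs in capitals. They are Id2 on the minus strand at chr12:25096068-25096342, Id3 on the plus strand at chr4:136143572-136143846, Smad6 on the minus strand at chr9:64022035-64022309 and Tgfbr2 on the minus strand at chr9:116175339-116175613.
Id2: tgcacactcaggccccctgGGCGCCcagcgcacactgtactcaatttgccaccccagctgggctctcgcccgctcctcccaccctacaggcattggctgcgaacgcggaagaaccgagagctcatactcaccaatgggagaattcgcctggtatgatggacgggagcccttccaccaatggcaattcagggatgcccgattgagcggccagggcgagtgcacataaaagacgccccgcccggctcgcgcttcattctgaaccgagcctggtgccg
Id3: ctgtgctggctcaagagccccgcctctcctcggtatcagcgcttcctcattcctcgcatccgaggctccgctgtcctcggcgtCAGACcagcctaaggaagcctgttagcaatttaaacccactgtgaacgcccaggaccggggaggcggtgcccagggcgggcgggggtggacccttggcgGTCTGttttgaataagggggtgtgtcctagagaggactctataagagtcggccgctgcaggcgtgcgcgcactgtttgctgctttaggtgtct
Smad6: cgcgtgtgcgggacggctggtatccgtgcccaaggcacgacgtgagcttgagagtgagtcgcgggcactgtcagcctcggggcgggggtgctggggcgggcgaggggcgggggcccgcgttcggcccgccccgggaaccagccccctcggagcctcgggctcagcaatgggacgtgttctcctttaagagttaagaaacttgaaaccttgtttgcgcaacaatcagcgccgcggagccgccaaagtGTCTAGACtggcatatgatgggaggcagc
Tgfbr2: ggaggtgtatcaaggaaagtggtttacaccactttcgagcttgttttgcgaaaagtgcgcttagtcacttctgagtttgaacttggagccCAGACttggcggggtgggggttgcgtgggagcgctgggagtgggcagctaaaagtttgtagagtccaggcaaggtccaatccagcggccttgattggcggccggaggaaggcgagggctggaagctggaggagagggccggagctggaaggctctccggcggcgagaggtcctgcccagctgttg
Windows were found for 8 of the 10 genes, 9 windows in all, and both strands were searched. Counting the start site as 0, the Id2 window held 1 GGCGCC that began at -231. In Id3, a SMAD box began at -167 and another, on the opposite strand, at -68. The Smad6 window held the palindrome GTCTAGAC across its start site, from -4. In Tgfbr2 a SMAD box began at -160. Of the 2 windows of Tgfbr1, which are not printed, one held a GGCGCC and the other a CAGAC. The windows of Smad1, Smad3 and Tgfb1 held none of these 3 motifs. Among all 32851 windows of the same length, 46.1% held a SMAD box, 10.7% a GGCGCC and 0.192% the palindrome, which was added to the search after the windows had been read. The E-box CANNTG, the site of the E proteins, occurred in the windows of Id2, Smad6, Tgfbr1 and Tgfbr2 and in 69.6% of all windows. The AP-1 site TGANTCA occurred in none of the 9 windows and in 7.35% of all windows. These matches are a description of letters, with no measurement of binding.

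Libraries held 18489873 to 21667237 counts. Levels are given as CPM, counts scaled to the size of the library with TMM factors. Asxl2 itself stood at 93.1 ± 3.01 CPM (SD, n = 3) in flox BMM and 15.1 ± 0.265 in KO BMM, and at 73.4 ± 2.27 in flox OC and 13.7 ± 1.24 in KO OC, lower in every KO library. The 3 flox BMM libraries differed from each other more than those of the other groups did, with a chi-square per degree of freedom of 2.88 to 5.43 against 1.25 to 2.1. The 8 macrophage markers, all present in every group, summed to 28207 to 32464 CPM in the BMM libraries and 15410 to 16835 CPM in the OC libraries. Most of that sum was Lyz2, the gene that drives the Cre. Its means were 21791.5 CPM in flox BMM, 19552.7 in KO BMM, 10623.1 in flox OC and 11665.7 in KO OC. Each of the 8 markers fell with RANKL in both genotypes. Of 10 osteoclast markers, 8 were tested. The list of 10 summed to 743 to 765 CPM in flox OC and 379 to 396 CPM in KO OC, against 206 to 243 CPM in BMM. With RANKL 7 of the 8 rose and 1 fell in each genotype, where 37% of all genes rose in flox cells and 35.5% in KO cells. In KO BMM 4 of the 8 were lower and 2 higher than in flox BMM, against 20.6% and 19.3% of all genes. In KO OC 7 were lower and none higher, against 19.9% and 21.4%. Calcr, the calcitonin receptor of mature osteoclasts, was at 0 in every group but flox OC.

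**Figure D1:**
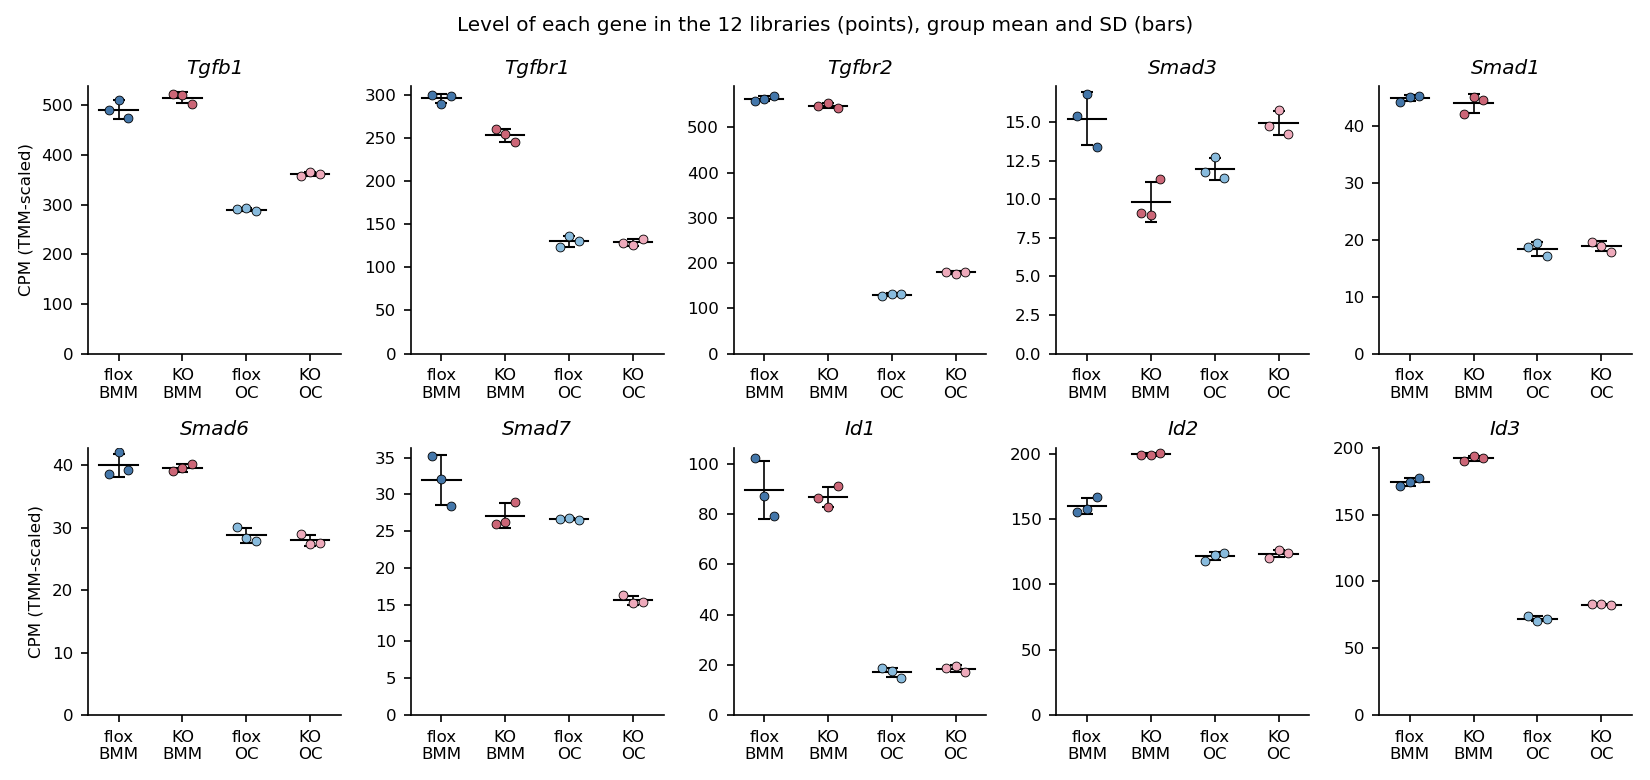
The vertical axis of each panel is the level of 1 gene in TMM-scaled CPM, from 0, and the horizontal axis the 4 groups. Points are the 3 libraries of a group, long bars the means and whiskers the SD. The other 9 genes are lower in both OC groups than in the BMM group of the same genotype, and Smad3 is higher in KO OC than in KO BMM.

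With RANKL, the RNA of the whole set was lower in flox cells. All 10 genes fell, and none rose, although Smad7 did not pass when scaled by library size alone. Of all genes tested 74.8% passed in either direction, 37.8% falling and 37% rising (edgeR's quasi-likelihood test with Benjamini-Hochberg adjustment, adjusted p under 0.05). In KO cells 9 fell and 1, Smad3, rose, against 70.5% of all genes passing, 35% falling and 35.5% rising. In both genotypes the RANKL and M-CSF libraries did not overlap for any of the 10 genes, which was also so for 75.2% of all genes in flox cells and 73.4% in KO cells. The median log2 change of the 10 genes was -0.97 in flox cells and -0.89 in KO cells, and that of all genes was near 0 (-0.0036 and 0.0017). In bulk RNA, fewer cells of a type and less RNA per cell cannot be told apart. By size the falls ranged from 5.25-fold for Id1 to 1.20-fold for Smad7 in flox cells.

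Between the genotypes the 10 genes split. In BMM, 3 were higher in KO cells (Id2, Id3 and Tgfb1), 3 lower (Smad3, Smad7 and Tgfbr1) and 4 did not pass, against 39.9% of all genes passing, 19.3% higher and 20.6% lower. In OC, 4 were higher (Tgfbr2, Tgfb1, Smad3 and Id3), 1 lower (Smad7) and 5 did not pass, against 41.3% of all genes passing, 21.4% higher and 19.9% lower. For 5 of the 10 genes in each culture the 2 genotypes' libraries did not overlap, against 46.6% of all genes in BMM and 51.3% in OC. The shares without overlap lie near those of all genes. The called shares were further from those of all genes in BMM, and in OC by direction. They rest on only 10 genes, and their distance was not tested. The medians were near 0 (-0.03 in BMM and 0.08 in OC, with all genes at 0.0008 and 0.0060).

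**Figure D2:**
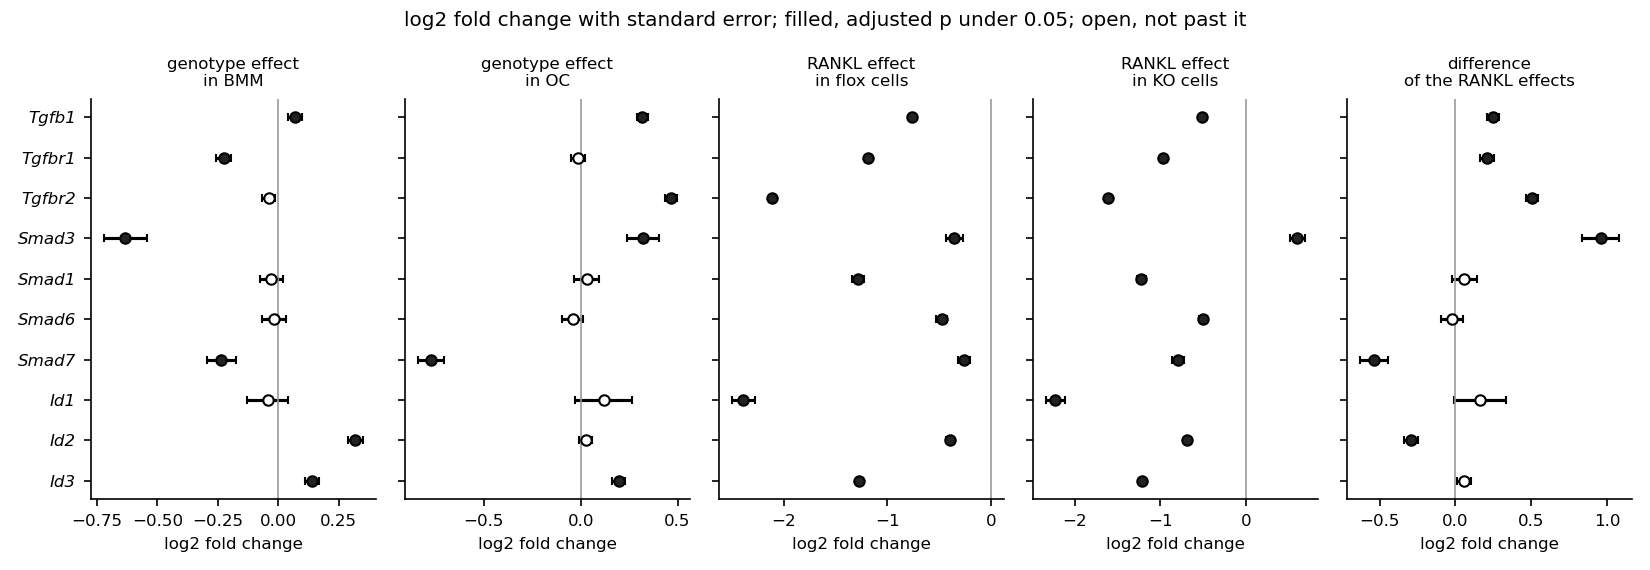
The horizontal axis is the log2 fold change of each of the 10 genes in 5 comparisons, each with its own scale, and whiskers are standard errors. Filled points passed the adjusted threshold of 0.05, open points did not. Smad3 is the only one of the 10 past the threshold with opposite signs in the 2 genotype comparisons, at -0.63 in BMM and 0.32 in OC, and likewise in the 2 RANKL comparisons, at -0.35 and 0.60.

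Tgfb1 (ENSMUSG00000002603, chr7:25687002-25705077, plus strand, GRCm38) encodes the TGF-beta ligand that macrophages make. Its level was 491, 510.5 and 474 CPM in the 3 flox BMM libraries, 523, 522 and 503 CPM in KO BMM, 290.3, 292 and 287 CPM in flox OC and 357, 366 and 362 CPM in KO OC. Every KO OC library thus lay above every flox OC library, and the BMM libraries of both genotypes overlapped above them. With RANKL it fell 1.70-fold in flox cells (log2 change -0.76 ± 0.03 SE, edgeR adjusted p = 1.982e-28) and 1.43-fold in KO cells (-0.51 ± 0.03, adjusted p = 1.127e-21). The fall was smaller in KO cells by 0.25 ± 0.04 on the log2 scale (adjusted p = 3.542e-06 by edgeR for the difference of the RANKL effects). Tgfb1 was 1.25-fold higher in KO OC than in flox OC (adjusted p = 4.165e-13, edgeR). In BMM the difference was 0.07 ± 0.03 on the log2 scale with an edgeR adjusted p of 0.0430, and in 12 of 19 alternative settings it did not pass, DESeq2 among them at an adjusted p of 0.0860 (range over the settings 0.0011 to 0.1817). Without flox BMM library 3 it was 0.05 (adjusted p = 0.1817, edgeR), and without KO BMM library 1 or 2 its adjusted p was 0.1407 or 0.1470. Per kilobase of exon, the only scale on which genes are compared here, Tgfb1 had the highest level of the 10 genes in all 4 groups, from 113 CPM per kb in flox OC to 202 CPM per kb in KO BMM.

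Tgfbr2 (ENSMUSG00000032440, chr9:116087698-116175363, minus strand), the receptor that binds the ligand, had the largest step between cultures after Id1. It was read at 559, 562 and 569 CPM in flox BMM and at 547, 554 and 544 CPM in KO BMM. With RANKL it stood at 126, 132 and 131 CPM in flox OC and at 181, 176 and 181 CPM in KO OC. All 4 groups were apart from each other. RANKL lowered it 4.34-fold in flox cells (log2 change -2.12 ± 0.03 SE, edgeR adjusted p = 1.116e-46) and 3.06-fold in KO cells (-1.61 ± 0.03, adjusted p = 3.611e-42). The 2 RANKL effects differed by 0.50 ± 0.04 on the log2 scale (edgeR adjusted p = 4.122e-14). Tgfbr2 was 1.38-fold higher in KO OC than in flox OC (edgeR adjusted p = 4.259e-18), and in BMM the difference of -0.04 did not pass the test (edgeR adjusted p = 0.2520).

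Tgfbr1 (ENSMUSG00000007613, chr4:47353222-47414931, plus strand), the kinase that phosphorylates SMAD2 and SMAD3, differed between the genotypes in the other culture. Flox BMM libraries held 299.7, 289.7 and 298 CPM and KO BMM libraries 260.2, 255 and 245 CPM. In flox OC it was 123, 136 and 131 CPM and in KO OC 128, 126 and 133 CPM, with the 2 OC groups overlapping. It was 1.17-fold lower in KO BMM (log2 change -0.22 ± 0.03 SE, edgeR adjusted p = 4.922e-08), while in OC the change of -0.01 had an adjusted p of 0.7843 by edgeR. RANKL lowered it 2.27-fold in flox and 1.97-fold in KO cells, and the 2 effects differed by 0.21 ± 0.05 on the log2 scale (edgeR adjusted p = 5.421e-04). The ratio of the per-kb levels of the 2 receptors, Tgfbr2 to Tgfbr1, was 2.6 ± 0.0521 (SD, n = 3) in flox BMM, 2.96 ± 0.0806 in KO BMM, 1.36 ± 0.0396 in flox OC and 1.9 ± 0.0431 in KO OC. No library of one group overlapped another in this ratio, which was above 1 in all 12 libraries.

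Smad3 (ENSMUSG00000032402, chr9:63646767-63757994, minus strand), the receptor-activated SMAD of the TGF-beta branch, had the lowest level per kb of the 10 genes in every group, from 1.77 CPM per kb in KO BMM to 2.74 in flox BMM. Its level was 15.4, 16.8 and 13.4 CPM in flox BMM, 9.12, 9 and 11.3 CPM in KO BMM, 11.7, 12.7 and 11.4 CPM in flox OC and 14.8, 15.8 and 14.3 CPM in KO OC. KO cells were thus the lower genotype in BMM and the higher one in OC, with no overlap in either, and flox BMM and KO OC overlapped as the 2 highest groups. Smad3 was 1.55-fold lower in KO BMM (log2 change -0.63 ± 0.09 SE, edgeR adjusted p = 7.099e-08) and 1.25-fold higher in KO OC (0.32 ± 0.08, adjusted p = 0.0014). RANKL lowered it 1.28-fold in flox cells (edgeR adjusted p = 2.325e-04) and raised it 1.52-fold in KO cells (adjusted p = 4.575e-08). The difference of the 2 RANKL effects, 0.96 ± 0.12 on the log2 scale, was the largest of the 10 genes (edgeR adjusted p = 2.662e-08).

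Smad1 (ENSMUSG00000031681, chr8:79338395-79399518, minus strand), a receptor-activated SMAD of the BMP branch, differed between the cultures, with no difference past the threshold between the genotypes. It was read at 44.4, 45.2 and 45.3 CPM in flox BMM, 42.1, 45.2 and 44.7 CPM in KO BMM, 18.8, 19.5 and 17.1 CPM in flox OC and 19.7, 19 and 17.9 CPM in KO OC. The genotypes overlapped in both cultures, and the cultures did not. RANKL lowered Smad1 2.43-fold in flox cells (log2 change -1.28 ± 0.06 SE, edgeR adjusted p = 4.859e-26) and 2.34-fold in KO cells (-1.22 ± 0.05, adjusted p = 4.037e-25). The genotype changes, -0.03 in BMM and 0.03 in OC, had edgeR adjusted p of 0.6763 and 0.7443, and their signs turned under some of the alternatives.

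Smad6 (ENSMUSG00000036867, chr9:63953076-64022059, minus strand), the inhibitory SMAD that acts mainly on the BMP branch, was at 38.6, 42.1 and 39.3 CPM in flox BMM and 39, 39.5 and 40.2 CPM in KO BMM. In OC it stood at 30.04, 28.4 and 27.8 CPM in flox and 29, 27.4 and 27.5 CPM in KO libraries. As for Smad1, the genotypes overlapped and the cultures did not. RANKL lowered it 1.39-fold in flox and 1.42-fold in KO cells (log2 changes of -0.48 and -0.50, each ± 0.05 SE, edgeR adjusted p = 1.005e-11 and 2.881e-12). Its genotype changes of -0.02 and -0.04 did not pass (edgeR adjusted p = 0.8247 and 0.5727). Since Smad1 fell more than Smad6, the per-kb ratio of Smad6 to Smad1 was 1.57 to 1.69 in the BMM libraries of flox cells and 1.58 to 1.68 in those of KO cells, against 2.64 to 2.95 and 2.62 to 2.79 in OC.

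Smad7 (ENSMUSG00000025880, chr18:75367529-75395935, plus strand), the inhibitory SMAD of the TGF-beta receptor and a known target of TGF-beta, was lowest in KO OC. Its level was 35.3, 32.1 and 28.4 CPM in flox BMM, 26.01, 26.2 and 29 CPM in KO BMM, 26.6, 26.8 and 26.6 CPM in flox OC and 16.3, 15.2 and 15.3 CPM in KO OC. The 3 KO OC libraries lay below all others, and the other 3 groups were not all apart, since KO BMM overlapped both flox groups. Smad7 was 1.71-fold lower in KO OC than in flox OC (log2 change -0.77 ± 0.07 SE, edgeR adjusted p = 2.167e-13). In BMM it was also lower in KO cells (-0.24 ± 0.06, edgeR adjusted p = 0.0014), but without flox BMM library 1 the change was -0.15 (adjusted p = 0.0426, the highest of 19 settings, the lowest being 3.418e-05). RANKL lowered it 1.74-fold in KO cells (edgeR adjusted p = 1.596e-14) and 1.20-fold in flox cells (adjusted p = 1.477e-04), where scaling by library size alone gave -0.09 and no call (adjusted p = 0.1593, in a range of 1.859e-06 to 0.1593 over the settings). The RANKL effects had a difference of -0.54 ± 0.09 on the log2 scale (edgeR adjusted p = 1.038e-05).

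Set against each other, the inhibitor Smad7 and the activator Smad3 moved in opposite directions between the genotypes in OC. Their per-kb ratio, Smad7 to Smad3, was 2.34 to 2.8 in flox BMM, 3.15 to 3.57 in KO BMM, 2.58 to 2.87 in flox OC and 1.18 to 1.36 in KO OC. KO BMM was the highest group and KO OC the lowest, and the 2 flox groups overlapped between them.

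Id1 (ENSMUSG00000042745, chr2:152736251-152737410, plus strand) had the largest RANKL effect of the 10 genes. It was read at 102, 87.1 and 79.4 CPM in flox BMM, 86.3, 83 and 91.1 CPM in KO BMM, 18.5, 17.6 and 14.9 CPM in flox OC and 18.6, 19.7 and 17.3 CPM in KO OC. The genotypes overlapped in both cultures. RANKL lowered Id1 5.25-fold in flox cells (log2 change -2.39 ± 0.11 SE, edgeR adjusted p = 1.014e-08) and 4.69-fold in KO cells (-2.23 ± 0.11, adjusted p = 2.053e-08). The difference of these effects, 0.16 ± 0.17, did not pass (edgeR adjusted p = 0.5727), nor did the genotype changes of -0.04 in BMM and 0.12 in OC (adjusted p = 0.7378 and 0.5698).

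Id3 (ENSMUSG00000007872, chr4:136143497-136145755, plus strand) was the only Id gene past the threshold in every one of the 4 comparisons between groups. Its level was 171, 174 and 177 CPM in flox BMM, 189.8, 194 and 192 CPM in KO BMM, 74.1, 70.1 and 72 CPM in flox OC and 82.9, 82.7 and 82 CPM in KO OC. The 4 groups were all apart, with KO above flox in each culture. It was 1.10-fold higher in KO BMM (log2 change 0.14 ± 0.03 SE, edgeR adjusted p = 1.472e-04) and 1.15-fold higher in KO OC (0.20 ± 0.04, adjusted p = 1.068e-05). RANKL lowered Id3 2.42-fold in flox and 2.32-fold in KO cells (edgeR adjusted p = 4.446e-35 and 1.484e-34), and the difference of 0.06 between these effects did not pass (adjusted p = 0.4385).

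Id2 (ENSMUSG00000020644, chr12:25093801-25096092, minus strand) had the smallest RANKL effect of the 3 Id genes. In flox BMM it stood at 156, 158 and 167 CPM and in KO BMM at 199, 199 and 200.5 CPM. In flox OC it was 118, 122 and 124 CPM and in KO OC 120.3, 126 and 124 CPM. KO BMM thus lay above flox BMM without overlap, and the OC groups overlapped. Id2 was 1.25-fold higher in KO BMM (log2 change 0.32 ± 0.03 SE, edgeR adjusted p = 5.057e-12), and in OC the change was 0.03 (adjusted p = 0.5753). RANKL lowered it 1.32-fold in flox cells and 1.62-fold in KO cells (edgeR adjusted p = 1.747e-15 and 1.068e-24), and the fall was larger in KO cells by 0.29 on the log2 scale (-0.29 ± 0.05, adjusted p = 1.807e-06).

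Because the 3 Id genes fell by different amounts, the make-up of Id RNA differed between the cultures. Per kb, their sum was 300.4 ± 5.11 CPM per kb (SD, n = 3) in flox BMM, 339 ± 4.01 in KO BMM, 150.4 ± 0.251 in flox OC and 159 ± 2.83 in KO OC. Id1 made up 25.7% ± 2.94 of it in flox BMM and 22.1% ± 0.784 in KO BMM, but 9.75% ± 1.09 in flox OC and 10.0% ± 0.547 in KO OC. Id2 made up 41.9% ± 1.97 and 46.3% ± 0.316 in BMM and 63.5% ± 1.53 and 61.0% ± 0.671 in OC. The share of Id3 was 32.4% ± 1.03 and 31.6% ± 0.518 in BMM and 26.8% ± 0.779 and 29.0% ± 0.525 in OC. The ranges of the BMM and OC libraries did not overlap for any of the 3 shares.

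**Figure D3:**
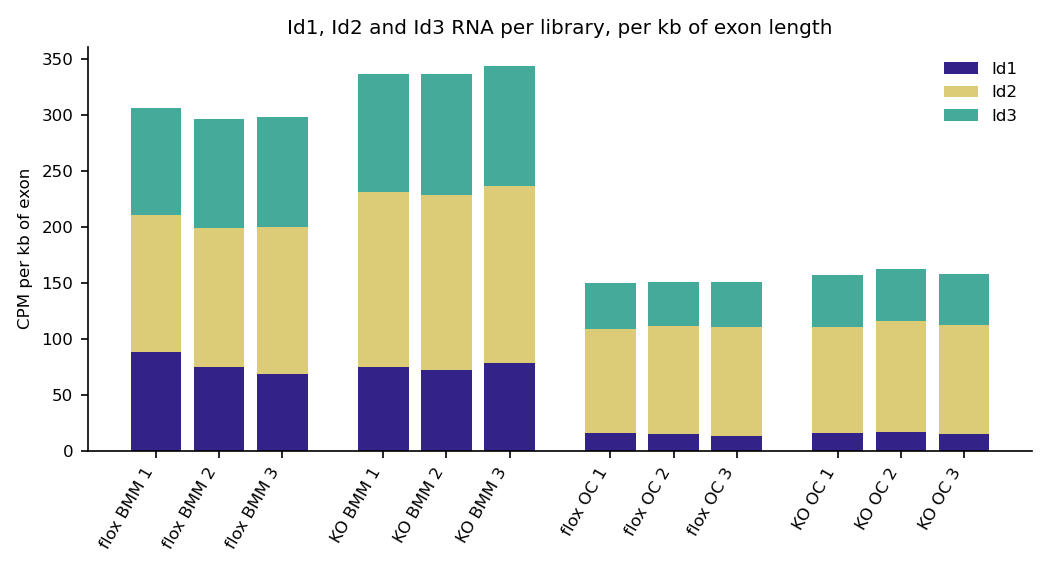
Each bar is 1 library, its height the sum of Id1, Id2 and Id3 in CPM per kb of exon, and its colours the 3 genes. The BMM bars reach 297 to 344 CPM per kb and the OC bars 150.1 to 162 CPM per kb; by fold, Id1 falls most of the 3 genes between them, 5.25-fold in flox and 4.69-fold in KO cells.

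When the RANKL effects of the genotypes were compared, 4 of the 10 genes had a higher response in KO cells (Smad3, Tgfbr2, Tgfb1 and Tgfbr1) and 2 a lower one (Id2 and Smad7), against 21.9% of all genes passing, 12.3% higher and 9.53% lower. For Tgfb1, Tgfbr1 and Tgfbr2 the higher response was a smaller fall. Of 8 tested macrophage markers 7 also had a higher response in KO cells, and of 8 osteoclast markers 4 had a lower one, and their part in these differences was not tested. The RANKL changes depend on the scaling: by library size alone the median of all genes moved by 0.17 in flox and 0.13 in KO cells on the log2 scale, and Smad7 in flox cells was then not called, as given above. Under that scaling Id2, Smad3 and Smad6 in flox cells stood at -0.23, -0.18 and -0.31 and still passed.

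The genes whose levels ran most like each of the 10 across the 12 libraries were listed by Pearson's r of log2 CPM, a description over libraries that share their groups. Tgfbr2 ran closest to Ms4a6c (r = 0.9996) and Mpeg1 (r = 0.9995), the second a macrophage gene for a pore-forming protein. Id3 was closest to Prr5l and Hacd4 (r = 0.9992 for both), and Id1 to Dusp7 (r = 0.9974) and Hmox1 (r = 0.9972), which encode a MAP kinase phosphatase and haem oxygenase. Tgfb1 ran with Ampd3 and Sdc3 (r = 0.9973 and 0.9970), Tgfbr1 with Fam45a and Qk (r = 0.9983 and 0.9980) and Smad1 with Rb1 and Pla2g15 (r = 0.9974 and 0.9971). For Smad6 the closest genes were Tex264 and Ctsa (r = 0.9960 and 0.9930), for Id2 Cd164 and Atp6v1d (r = 0.9928 and 0.9911), and for Smad7 Irf2bpl and Trim8 (r = 0.9824 and 0.9800). Smad3 had no gene above the r of Phip, 0.8528, followed by Rwdd2a at 0.8470, so its closest gene had the lowest r of the 10. Smad3 also held the smallest count of the 10, and spread between libraries of a group lowers r. This r thus cannot tell whether its pattern over the 4 groups was less shared.

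Other genes of the pathway were read from 8 lists, which cover ligands, their storage and activation, receptors, SMADs, inhibitors, targets, microglia genes and partners of the ID proteins. The shares of all genes to set beside their counts are 20.6% lower and 19.3% higher in KO BMM, 19.9% lower and 21.4% higher in KO OC, and medians near 0. Some lists were near even in direction, such as that of the ID partners, which also holds Id4. It had 4 lower and 3 higher in BMM and 3 lower and 2 higher in OC. All 7 tested genes of that list passed in BMM, against 39.9% of all genes. Of 11 tested TGF-beta target genes, 10 were lower in KO BMM and 10 in KO OC, and none was higher, with a median log2 change of -0.64 and -0.89. Ccn2, a matricellular protein gene, was 3.08-fold lower in KO BMM and 3.22-fold lower in KO OC (edgeR adjusted p = 1.215e-23 and 2.011e-22). Cdkn2b, a cell cycle inhibitor, was 2.64-fold lower in KO BMM and 1.94-fold lower in KO OC (adjusted p = 5.831e-07 and 1.879e-04, edgeR). Col1a1, which is also in the stromal marker list, was 3.19-fold and 2.91-fold lower. With RANKL the 11 target genes were split: 6 rose and 4 fell in flox cells, and 5 rose and 5 fell in KO cells. Their median log2 changes were 0.33 and 0.19. Of all genes, 37% rose and 37.8% fell in flox cells, and 35.5% rose and 35% fell in KO cells.

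The other ligands were scarce. Of 14 listed, 8 were tested, 7 of which were lower in KO BMM and 6 in KO OC. Tgfb3 stood at 8.71 to 9.7 CPM in flox BMM and 3.56 to 4.31 CPM in KO BMM (edgeR adjusted p = 3.543e-13). The activin subunit gene Inhba was 2.23-fold lower in KO BMM and 2.50-fold lower in KO OC (adjusted p = 1.436e-05 and 5.150e-06, edgeR). Bmp4, Bmp7 and the myostatin gene Mstn had no count in any library, where 3 counts would have been 0.139 to 0.162 CPM. The 1 ligand higher in KO BMM was Gdf15, a stress-induced factor, at 10.2 to 10.7 CPM against 4.48 to 6.13 CPM in flox BMM.

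Genes that store or activate the ligand were partly lower. Of 9 tested, 7 were lower in KO BMM and none higher, and in OC 6 were lower and 3 higher. Thbs1, thrombospondin 1, an activator of latent TGF-beta, was at 114 to 118 CPM in flox BMM and 39.6 to 41.8 CPM in KO BMM (2.84-fold, edgeR adjusted p = 4.444e-33) and 3.16-fold lower in KO OC (adjusted p = 1.575e-33). Itgav, the alpha V integrin subunit that binds latent TGF-beta, was 1.99-fold lower in KO BMM and 1.90-fold lower in KO OC (edgeR adjusted p = 2.268e-12 and 4.992e-12). Ltbp1, a latent TGF-beta binding protein, rose 7.01-fold with RANKL in flox cells and 8.89-fold in KO cells (edgeR adjusted p = 1.459e-27 and 2.651e-20), opposite to the fall of Tgfb1 itself. Nrros, which tethers latent TGF-beta on macrophages and microglia, fell with RANKL 2.54-fold in flox and 2.11-fold in KO cells (edgeR adjusted p = 3.952e-37 and 3.023e-33).

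Among 9 tested other receptors and co-receptors, 6 were lower in KO BMM and none higher, and in OC 3 were lower and 1 higher. Acvrl1, the type I receptor ALK1, was at 86.5 to 96.7 CPM in flox BMM and 46.7 to 47.9 CPM in KO BMM (1.96-fold, edgeR adjusted p = 1.871e-24) and 1.78-fold lower in KO OC (adjusted p = 9.735e-20). Against the fall of Tgfbr1 and Tgfbr2, the activin and BMP receptor genes Acvr1 and Acvr2a rose with RANKL, 2.58-fold and 2.67-fold in flox cells and 2.09-fold and 3.89-fold in KO cells (edgeR adjusted p = 2.391e-31, 2.912e-24, 1.586e-25 and 8.906e-29). Bmpr2 fell 1.87-fold and 1.78-fold (adjusted p = 2.162e-23 and 7.776e-22, edgeR). Of the 6 other SMADs and anchors, 2 were lower in KO BMM, and in OC 1 was lower and 1 higher, near the shares of all genes (20.6% lower in BMM, 19.9% lower and 21.4% higher in OC). Zfyve9, the SARA protein that presents SMAD2 and SMAD3 to the receptor, was 2.15-fold lower in KO BMM and 2.34-fold lower in KO OC (edgeR adjusted p = 2.473e-09 and 2.843e-11).

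Of 12 tested inhibitors of the pathway, 8 were lower and 2 higher in KO BMM, and 7 lower and 3 higher in KO OC. Skil, the SnoN corepressor that is itself induced by TGF-beta, was 1.38-fold lower in KO BMM (edgeR adjusted p = 1.731e-18). Pmepa1, a membrane inhibitor of SMAD2 and SMAD3 activation, was at 72.5, 56.4 and 43.5 CPM in the flox BMM libraries and 40.5 to 42.6 CPM in KO BMM. The log2 change was -0.47 (edgeR adjusted p = 0.0380). Without flox BMM library 1 it was -0.27 and still passed (edgeR adjusted p = 0.0057). It did not pass with the replicate block (edgeR adjusted p = 0.0579), without the low-count filter or with only the 2 groups compared. Nor did it pass without flox BMM library 2, or without any 1 library of KO BMM, flox OC or KO OC. Its adjusted p ranged from 2.121e-05 to 0.1625 over the settings. With RANKL, Bambi, a pseudoreceptor, fell 3.20-fold in flox and 2.67-fold in KO cells, while Smurf1, a ubiquitin ligase for SMAD1 and SMAD5, rose 2.63-fold and 2.61-fold (edgeR adjusted p = 8.617e-25, 5.620e-21, 2.336e-34 and 1.272e-33).

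Genes that depend on TGF-beta in mouse microglia, the macrophages of the brain, were nearly all high in BMM and low in OC. Of 8 tested, 7 fell and 1 rose with RANKL in each genotype, with a median log2 change of -2.96 in flox and -2.44 in KO cells. Of all genes 37.8% fell in flox and 35% in KO cells, and all 8 macrophage markers fell as well, with medians of -1.13 and -0.80. The part of the macrophage markers' fall in that of the microglia genes was not tested. Fcrls fell 18.6-fold in flox and 11.9-fold in KO cells, and the purinergic receptor gene P2ry12 15.2-fold and 11.4-fold (edgeR adjusted p = 2.235e-45, 4.529e-38, 4.208e-35 and 1.927e-32). All 8 were lower in KO BMM, Fcrls by 2.65-fold (adjusted p = 1.286e-30, edgeR). In OC, 2 were lower in KO cells and 1, the fractalkine receptor gene Cx3cr1, was higher, at 188 to 191 CPM against 86 to 86.9 CPM in flox OC (2.19-fold, edgeR adjusted p = 2.347e-06).

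The partners of the ID proteins were tested for 7 of 9 listed bHLH and Id4 genes. Lyl1, a haematopoietic bHLH factor, was 1.49-fold higher in KO BMM and 3.27-fold higher in KO OC and fell with RANKL 10.9-fold in flox and 4.97-fold in KO cells (edgeR adjusted p = 4.771e-15, 5.173e-20, 7.736e-38 and 3.963e-36). Tcf4, an E protein, fell 2.10-fold and 2.01-fold with RANKL (adjusted p = 8.184e-32 and 4.115e-30, edgeR). Mitf, a bHLH zipper factor that drives osteoclast genes, was 1.20-fold lower in KO BMM and 1.45-fold lower in KO OC (edgeR adjusted p = 2.531e-08 and 9.740e-18).

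**Figure D4:**
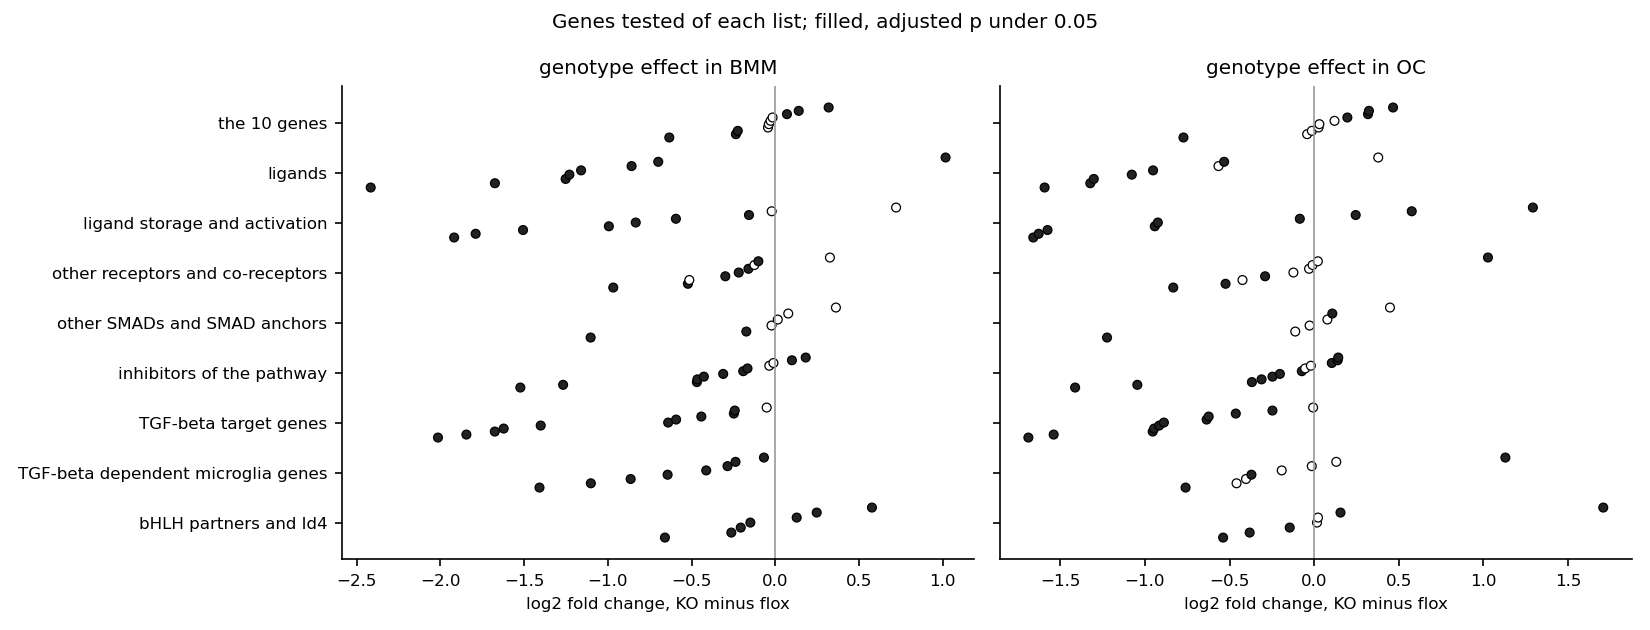
Each point is a tested gene, placed by its log2 fold change of KO minus flox on the horizontal axis and by its list on the vertical axis, in BMM on the left and OC on the right. Filled points passed the adjusted threshold of 0.05. The 10 genes lie around 0, whereas no TGF-beta target gene lies above 0 in either culture.

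Stromal and osteoblast markers were lower in KO cells, and Col1a1 is in both this list and that of the TGF-beta target genes. Of their 16 genes 10 were tested, and all 10 were lower in KO cells in both cultures, and the list summed to 216 to 234 CPM in flox BMM and 68.2 to 77.0 CPM in KO BMM, and to 183 to 185 CPM in flox OC and 56.0 to 65.4 CPM in KO OC. Bglap, osteocalcin, was at 0 in all groups, and Sp7 and Lepr were at 0 in KO BMM. The megakaryocyte and platelet list, with 2 of 6 genes tested, summed to 343 to 408 CPM in flox BMM and 48.0 to 52.1 in KO BMM, and to 134 to 141 CPM in flox OC and 15.2 to 16.2 in KO OC. Neutrophil markers, with 5 of 9 tested, summed to 78.7 to 83.2 CPM in flox BMM and 26.1 to 28.6 in KO BMM, and to 34.4 to 36.6 CPM in flox OC and 10.5 to 12.3 in KO OC, with Ly6g at 0 in all groups. The part of these cell types in the genotype differences of the 10 genes and of the lists was not tested.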

How the data were processed

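RNA-seq of oligo-dT selected total RNA was read in 12 libraries, grouped by their titles. Per the submitters' processing notes, the aligner was STAR 2.0.4b and the build GRCm38. Per the file headers, the deposited raw counts per gene came from featureCounts 1.4.5-p1 with Ensembl release 76, summed over exons with strand setting 0, and the authors did not normalize them. Symbols were matched for 40254 of 41388 identifiers, and the 1134 others held 0.136% of the counts. No exon base of the 10 genes was shared with another gene, and at most 0.77% of the 50-base words of any of them occurred in another gene.

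Counts were modelled in edgeR 4.0.16 (quasi-likelihood F test, limma 3.58.1, R 4.3.3) with TMM factors, its default low-count filter on groups, robust estimation and 4 group means over all 12 libraries. A gene was called at an adjusted p under 0.05 (Benjamini-Hochberg over the 13030 genes tested). Each standard error is the size of the log2 change divided by the root of its F statistic. Groups were said not to overlap where all 3 libraries of one lay above all 3 of the other. CPM per kb used the exon length in the files. With 3 libraries a group, precision rests on the spread between them, and on depths of 18489873 to 21667237 counts. Limits from counts of 0 cover counting error only. Counts were compared by chi-square only between libraries of the same group, with 1.25 to 5.43 per degree of freedom. These values measure spread whatever its source, so they cannot tell whether a group's libraries shared a cell pool or RNA. The spread between libraries beyond counting error, as a coefficient of variation in the edgeR fit, was 2.54%. The fit was tested on simulated data.

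The 10 genes, the other lists and their tests were chosen with earlier results of these data known. Named genes are the 10, Asxl2, up to 4 called genes with at least 1 CPM per list and comparison with the largest change, and the 2 genes most like each of the 10. Some genes that this rule selects are left out of the text. Other genes of these lists are given as counts, except for genes at 0 and Gdf15, which were named after their values were seen. Alternatives were library size alone, RLE size factors, DESeq2 1.42.0, other low-count filters, a replicate block, only the groups compared, and leaving out each library. Replicate numbers were not used to pair libraries in the main fit, since no label ties them to an animal or batch.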

Additional observations from a re-analysis of the deposited data

Results flagged for a closer look

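For these genes the RANKL effect in KO cells differed from that in flox cells by the test of the difference itself (edgeR, adjusted p under 0.05). Values are differences of log2 changes, KO minus flox, and each flox and KO change has its own 3 M-CSF libraries. Among the 10 genes the difference was 0.96 for Smad3, 0.50 for Tgfbr2, 0.25 for Tgfb1, 0.21 for Tgfbr1, -0.29 for Id2 and -0.54 for Smad7. Smad3 is the one whose RANKL changes had opposite signs.

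Ligand and storage genes in this set were Bmp2 at 1.85, Ltbp2 at 1.17, Nrros at 0.27 and Gdf15 at -0.64. The value of Bmp2 rests on 2, 1 and 2 counts in the KO BMM libraries, under the limit of 3 counts, and its call was lost in 8 alternative settings (highest adjusted p 0.1552). That of Gdf15 was lost in 10, DESeq2 among them at an adjusted p of 0.0808 (highest 0.1989). Receptor genes were Acvr2a at 0.54, Acvr1b at 0.29 and Acvr1 at -0.31. Zfyve16, an endosomal SMAD anchor, stood at 0.25 and the corepressor gene Skil at 0.39. Target genes were Itgb5 at 0.24, Tgfbi at -0.47 and Cdkn1a at -0.57. Microglia genes were Cx3cr1 at 1.37, Fcrls at 0.65 and Olfml3 at 0.49. Among bHLH genes the values were 1.13 for Lyl1, 0.28 for Tal1, 0.17 for Tfe3 and -0.28 for Mitf.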

How the results depend on the processing

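The counts of called genes among the 10, in each direction and comparison, stayed within 1.5 times the reported counts under every alternative run. With so few genes this limit is loose, since it lets a count of 3 fall to 2. The count higher in BMM did so with RLE size factors and with DESeq2, where Tgfb1 was not called. By library size alone, 9 of the 10 genes were lower with RANKL in flox cells. No label ties the replicate numbers to an animal or batch. Same-numbered libraries deviated from their group means with correlations of -0.04 to 0.04. Counting error is part of these deviations, so the correlations cannot exclude a shared animal or batch. With the replicate block, calls of the 10 genes were the same in number (3 higher and 3 lower in BMM, 4 and 1 in OC), and over all genes the block gave 2486 higher and 2664 lower in BMM against 2513 and 2690 without it.

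Some changes that did not pass turned sign, as did the called RANKL change of Smad2 in KO cells. Scaled by library size alone, the BMM change of Smad1 was 0.0067 and that of Smad6 0.0188, and the RANKL change in KO cells was 0.0017 for Asxl2 and 0.0201 for Smad2. Leaving out 1 library gave -0.1175 to 0.0674 for Id1, -0.0484 to 0.0014 for Smad1 and -0.0325 to 0.0261 for Smad6 in BMM, -0.0208 to 0.0687 for Smad1 and -0.0522 to 0.0184 for Tgfbr1 in OC, and -0.0736 to 0.0084 for the difference of the RANKL effects of Smad6. Differences of RANKL effects that missed the threshold under some alternatives were those of Bmp2 (highest adjusted p 0.1552), Gdf15 (0.1989), Olfml3 (0.0548), Tal1 (0.0769) and Zfyve16 (0.0808). The cause was not tested.

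Library size alone moved the split of calls over all genes: in BMM 3334 were then higher and 2228 lower, with RANKL 6320 and 3737 in flox cells against 4822 and 4925, 5970 and 3431 in KO cells against 4627 and 4555, and 1312 and 1716 for the difference against 1607 and 1242. Depth limits little here for the 10 genes, whose smallest count was 168.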
